A study of Mus musculus with 2 samples.

Results

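The nuclear genes for the respiratory chain and ATP synthase were measured in total RNA from the hippocampus of the mouse. Members were taken by symbol from the gene annotation. A member had a transcript typed protein_coding and a symbol that began with Ndufa, Ndufb, Ndufc, Ndufs or Ndufv and a digit, with Uqcr, with Cox4 to Cox8 or with Atp5, or that was Sdha, Sdhb, Sdhc or Sdhd, and symbols holding -ps were left out. The rule gave 85 gene identifiers among 55536 annotated genes, of which 37 belonged to complex I, 4 to complex II, 8 to complex III, 18 to complex IV and 18 to ATP synthase. Both libraries came from male B6CASTF1/J mice, the F1 hybrids of C57BL/6J and CAST/EiJ, aged 2 months, and the tissue was labelled a layer of the hippocampus. They carried biological replicate numbers 1 and 2 and formed 1 group with no treatment, so no groups were compared and no test was possible. The donor label was the same strain-level entry for both libraries, so that the replicates were separate animals rests on their numbers.

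Complexes I and II pass electrons from NADH and from succinate to ubiquinone, complex III passes them on to cytochrome c, and complex IV passes them to oxygen. Complexes I, III and IV pump protons across the inner mitochondrial membrane, and ATP synthase uses the resulting gradient to make ATP. Mitochondrial DNA encodes the central membrane subunits of all of these except complex II, while the genes described here are nuclear, and their proteins are imported. Several subunits of complex IV exist in alternative forms that are known for restricted expression in muscle, testis or lung. Neurons depend on this pathway to pay for ion pumping and synaptic transmission.

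The libraries held 31422827 expected counts in replicate 1 and 31303010 in replicate 2. The members took 167931 and 174019 of them, which is 0.537% and 0.559% of the counts on genes. Levels are given in TPM, an abundance scaled by transcript length and by the total of the library, so that genes can be set against each other. Where 2 values stand side by side for 1 gene, they belong to replicate 1 and replicate 2 in that order. Nuclear protein-coding genes held 42.1% and 41.2% of TPM in the gene quantification, called the first here. They held 74.2% and 74.4% in a second quantification, made directly from the reads, and most genes had higher TPM there. Marker genes of hippocampal cells were present in full, with 9 of 9 neuron, 6 of 6 astrocyte, 6 of 6 oligodendrocyte, 6 of 6 microglia and 6 of 6 endothelium markers detected, at medians of 120, 256, 92.9, 14.8 and 9.79 TPM. Over all genes the replicates differed by more than sampling noise, with a chi-square of 4.09 per degree of freedom over 20088 genes and of 3.77 over 81 members. They were not 1 library deposited in duplicate.

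Nearly all members were expressed, and at levels well above the typical gene. A gene was called detected when both libraries reached 1 TPM, and 80 of the 85 members did so, against 57.7% of the 22015 nuclear protein-coding genes. By the second quantification 83 members were detected, against 61.8% of those genes. The median of the detected members was 102 TPM, while that of the other 12617 detected nuclear protein-coding genes was 14.6 TPM, and 74 of the 80 members lay above that of the other genes. By rank among detected genes, 3 members stood in the top 100, 27 in the top 500 and 52 in the top 1000. The members together held 2.42% of nuclear protein-coding TPM in replicate 1 and 2.50% in replicate 2, and 2.60% and 2.68% in the second quantification. The members not detected were Cox4i2, Cox7b2, Cox8b, Cox8c and an additional identifier that carries the symbol Atp5o.

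**Figure D1:**
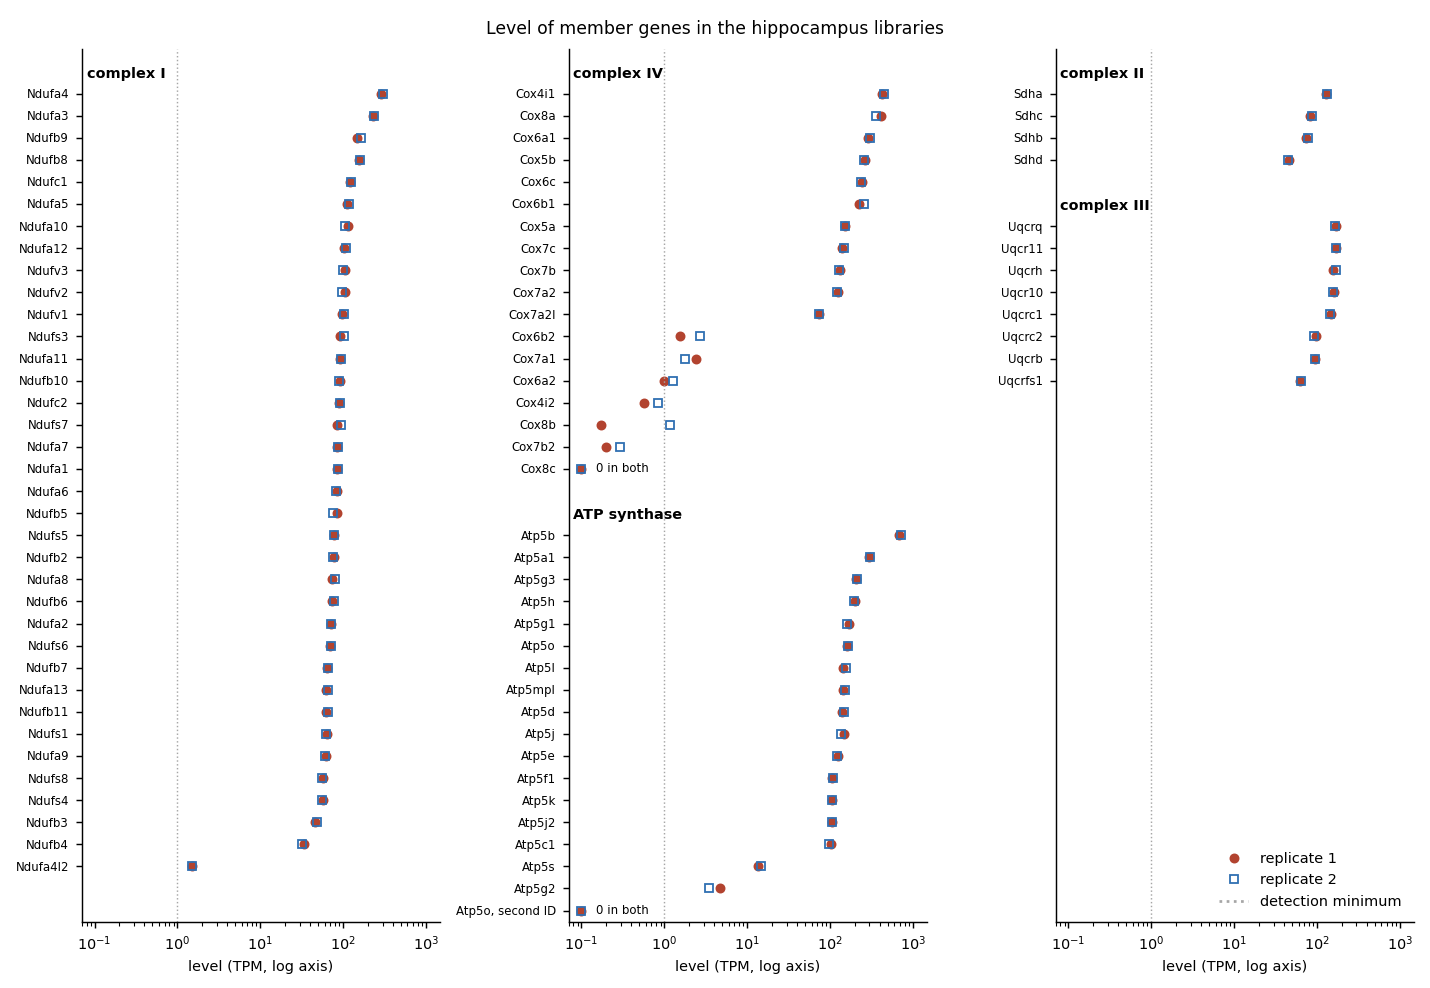
Level of 84 of the 85 members in TPM on a log axis, with replicate 1 as filled circles and replicate 2 as open squares, grouped by complex and ordered by mean level. The dotted line marks the detection minimum of 1 TPM, members at 0 in both libraries are drawn at the left end, and the symbols of the 2 libraries nearly coincide for all but the lowest members.

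Complex I, the NADH dehydrogenase, was detected in full, with a median of 85.5 TPM over its 37 members. Its 7 nuclear core subunits, which carry the flavin and the iron-sulfur clusters, had a median of 96.6 TPM. Ndufv1, which binds NADH and the flavin, had 97.8 and 103 TPM, and Ndufv2, its iron-sulfur partner, had 106 and 96.9 TPM. These subunits at the entry of the electron path stood close together by whole-gene TPM of the first quantification. On transcripts typed protein_coding Ndufv1 had 62.25 and 68.7 TPM, and Ndufv2 had 106 and 96.9 TPM. On such transcripts in the second quantification Ndufv1 averaged 124 TPM and Ndufv2 248 TPM. Ndufs3, a scaffold of the quinone-binding part, was at 91.0 and 102 TPM, and Ndufs7, which holds the last cluster before ubiquinone, at 85.4 and 93.7 TPM. Ndufs1, the largest subunit, with several clusters, was lower at 63.3 and 62.7 TPM, and Ndufs8, another carrier of clusters, at 57.8 and 56.1 TPM.

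The 29 accessory subunits of complex I outside the restricted list had a median of 84.1 TPM and a wider range than the core, from 33.1 to 297 TPM. Ndufa4, which was first purified with complex I and is now placed in complex IV, was the highest at 287 and 307 TPM. Without it the median of complex I was 84.8 TPM, and with it that of complex IV was 129 TPM. Ndufa3, a small membrane-arm subunit, followed at 232 and 236 TPM, and Ndufb9 at 149 and 165 TPM, Ndufb8 at 154 and 159 TPM and Ndufc1 at 122 and 126 TPM made up the next levels. Ndufa3 and Ndufc1 rested mainly on transcripts not typed protein_coding, which is described further on. At the lower end stood Ndufa9 at 63.2 and 60.9 TPM, Ndufs4 at 57.7 and 55.9 TPM, Ndufb3 at 45.3 and 48.6 TPM and Ndufb4 at 33.8 and 32.4 TPM. Ndufs4, a subunit of the NADH-oxidising arm, is the gene deleted in a widely used mouse model of Leigh syndrome. The ratio of the highest to the lowest accessory or core subunit was 8.98, and the middle 50% of complex I members lay between 69.3 and 104 TPM. That ratio counts Ndufa4, and without it the subunits outside the restricted list ranged from 33.1 to 234 TPM.

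The remaining members of complex I fell between those ends, and their replicates lay close to each other. Ndufa5 reached 112 and 119 TPM, Ndufa10, which resembles nucleoside kinases, 114 and 107 TPM, Ndufa12 103 and 108 TPM and Ndufv3 105 and 101 TPM. Ndufa11, Ndufb10, Ndufc2, Ndufa7, Ndufa1, Ndufa6 and Ndufb5 had mean levels between 81.1 and 94.1 TPM. Ndufs5, Ndufb2, Ndufa8, Ndufb6, Ndufa2, Ndufs6, Ndufb7, Ndufa13 and Ndufb11 had mean levels between 63.7 and 78.8 TPM. Ndufb1 is present in the annotation as Ndufb1-ps, typed as a noncoding RNA at a bidirectional promoter, and so is no member. It had 39.1 and 42.0 TPM.

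Complex II, succinate dehydrogenase, also a tricarboxylic acid cycle enzyme, has all its subunits encoded in the nucleus. Sdha, the flavoprotein that oxidises succinate, was at 129 and 131 TPM. Sdhb, the iron-sulfur subunit, had 74.6 and 77.8 TPM. The membrane anchors were at 81.7 and 86.5 TPM for Sdhc and at 45.5 and 45.2 TPM for Sdhd. Sdha was thus the highest and Sdhd the lowest in both libraries, and their ratio was 2.84 in replicate 1 and 2.90 in replicate 2. By the second quantification Sdha over Sdhd was 3.13 and 3.10. There Sdhc, at 74.5 and 82.2 TPM, lay below Sdhb, at 145 and 154 TPM, so the order of these subunits depended on the quantification.

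Complex III, the cytochrome bc1 complex, had a median of 152 TPM over 8 members, with a ratio of 2.65 between its highest and lowest subunit. By whole-gene TPM small subunits other than Uqcrb led it. Uqcrq was at 171 and 167 TPM, Uqcr11 at 168 and 169 TPM, Uqcrh, the acidic hinge protein, at 156 and 171 TPM and Uqcr10 at 159 and 157 TPM. The core proteins that face the matrix were lower, with Uqcrc1 at 148 and 142 TPM and Uqcrc2 at 98.1 and 92.2 TPM, a ratio of 1.51 in replicate 1 and 1.54 in replicate 2. That ratio was 1.15 and 1.20 in the second quantification. Uqcrb, a subunit near the ubiquinone site, had 94.0 and 94.3 TPM. Uqcrfs1, the Rieske iron-sulfur protein that hands electrons towards cytochrome c1, was the lowest at 62.7 and 64.7 TPM. On transcripts typed protein_coding Uqcrh averaged 70.0 TPM in the first and 13.6 TPM in the second quantification. On such transcripts in the second, Uqcr10 averaged 71.8 TPM and Uqcr11 18.8 TPM, below Uqcrc1 at 239 TPM. Uqcrq, at 268 TPM, stayed above Uqcrc1 there.

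Complex IV, cytochrome c oxidase, held 18 members, of which 14 were detected, and it divided into 11 subunit genes of wide use and a set of restricted forms at or near the detection limit. The 11 genes of wide use had a median of 242 TPM, against 126 TPM over all 18 members. Cox4i1, the main form of the largest nuclear subunit, was at 424 and 446 TPM. Cox8a had 414 and 361 TPM, and Cox6a1 had 285 and 303 TPM. By mean level these genes ranked 62, 80 and 134 among all detected nuclear protein-coding genes. Cox5b was at 264 and 256 TPM, Cox6c at 246 and 239 TPM and Cox6b1, which faces the intermembrane space, at 225 and 259 TPM. Cox5a had 153 and 151 TPM, Cox7c 138 and 146 TPM, Cox7b 132 and 127 TPM and Cox7a2 124 and 121 TPM. Cox7a2l, which encodes a protein that joins complexes III and IV into supercomplexes, was the lowest at 74.3 and 74.6 TPM. The ratio of Cox4i1 to Cox7a2l by mean level was 5.84.

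Of the restricted forms among the members, 4 of 8 were detected, and each took a small part of its set. By the second quantification 6 of 8 were, with Cox4i2 at a mean of 1.46 TPM and Cox8b at a mean of 2.11 TPM added to them. Cox4i2, the form known from lung and from low oxygen, was at 0.57 and 0.83 TPM, against 424 and 446 TPM for Cox4i1, and held 0.160% ± 0.036 (SD, n = 2) of the TPM of the pair. Cox6a2, the form of heart and skeletal muscle, had 1.00 and 1.27 TPM and 0.383% ± 0.047 of its pair with Cox6a1. Cox7a1, also a muscle form, had 2.42 and 1.77 TPM and 1.68% ± 0.33 of its pair with Cox7a2. Both muscle forms were detected, but their counts were few, at 13 and 17 for Cox6a2 and at 16 and 12 for Cox7a1. Cox6b2, the form known from testis, had 1.56 and 2.73 TPM, or 13 and 22 counts, and 0.866% ± 0.249 of its pair with Cox6b1. Ndufa4l2, a paralog of Ndufa4 known as a target of low oxygen, had 1.49 and 1.5 TPM from 28 and 29 counts, and 0.501% ± 0.020 of its pair.

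The other restricted forms were not detected in the first quantification. Cox8b, a form of muscle and brown fat, was at 0.17 and 1.16 TPM, from 1 and 7 counts. Cox7b2 had 0.20 and 0.29 TPM, from 2 and 3 counts. Cox8c, known from testis, drew no count from either library, and the limit set by 3 counts is 0.372 and 0.362 TPM. The 95% exact Clopper-Pearson intervals of the counts reached at most 0.26% and 0.317% for Cox4i2 and 1.66% and 1.34% for Cox7a1, and cover counting error only. From the second quantification the shares of TPM were 0.188% for Cox4i2, 0.204% for Cox6a2, 0.886% for Cox6b2, 1.02% for Cox7a1, 0.270% for Cox8b and 0.589% for Ndufa4l2.

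**Figure D2:**
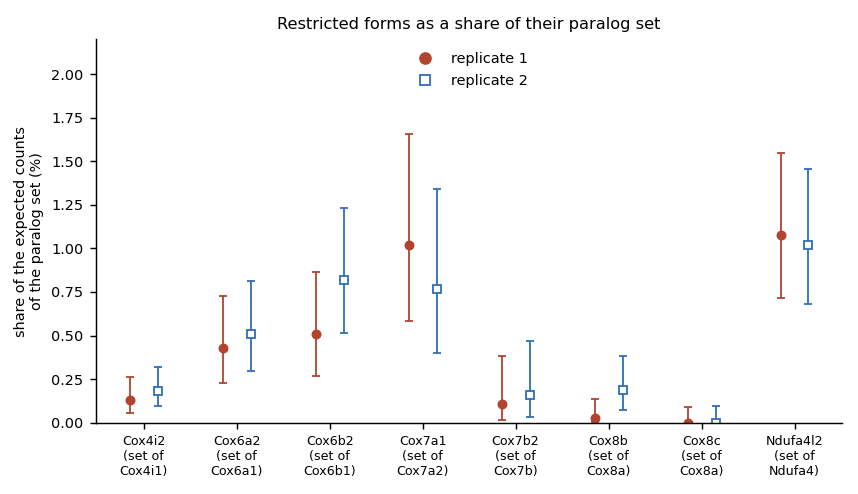
Share of the expected counts of each paralog set that fell on the restricted form, in percent, with replicate 1 as filled circles, replicate 2 as open squares and bars for the 95% exact interval of the count. The highest share of counts was 1.07%, that of Ndufa4l2 in replicate 1, and Cox8c is at 0 in both libraries.

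Genes listed as markers of the cells in which such forms are known were measured beside them. Which cells of the hippocampus expressed these genes was not tested. Mural cell markers were at a median of 3.39 TPM with 9 of 10 detected, and summed to 67.4 and 64.5 TPM, led by Vtn, Rgs5 and Cspg4, with Kcnj8 at 0.95 and 0.68 TPM. Striated muscle markers were at a median of 0.105 TPM with 3 of 10 detected, which were Myh7 at 3.39 and 4.0 TPM, Acta1 at 2.64 and 2.63 TPM and Myh6 at 1.02 and 1.67 TPM. Their sum was 8.03 and 9.60 TPM, and Actc1 was at 0 in both libraries. Of the brown fat markers 3 of 5 were detected, which were Dio2 at 18.2 and 16.6 TPM, Cidea at 4.29 and 3.66 TPM and Ppara at a mean of 1.16 TPM. Dio2 made up most of the sum of 23.7 and 21.4 TPM, with Ucp1 at 0 and 0.03 TPM and Elovl3 at 0 in both. The 8 testis markers were at 0 in both libraries, while Cox6b2 had 13 and 22 counts. The part of mural, muscle or brown fat cells in the levels of the restricted forms was not tested. In whole tissue, fewer cells of a type and less RNA per cell cannot be told apart.

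ATP synthase had a median of 142 TPM over 18 members. It held the highest of all members, and also the lowest detected member outside the restricted forms. Atp5b, the catalytic beta subunit, was at 681 and 714 TPM, and ranked 27th among detected nuclear protein-coding genes. Atp5a1, the alpha subunit, had 298 and 304 TPM. The alpha and beta subunits alternate in a ring around a single gamma subunit in the rotary head, and in the first quantification their transcripts were the most abundant of the complex. In the second, Atp5h had 514 and 572 TPM, beside 522 and 562 TPM for Atp5a1. Atp5c1, the gamma subunit, was at 102 and 97.8 TPM, Atp5d, the delta subunit, at 140 and 146 TPM and Atp5e, the epsilon subunit, at 124 and 121 TPM. Atp5b over Atp5c1 was 6.69 in replicate 1 and 7.30 in replicate 2, while Atp5a1 over Atp5c1 was 2.92 and 3.11. Atp5d over Atp5c1 was 1.38 and 1.49, and Atp5e over Atp5c1 was 1.22 and 1.23. By the second quantification these 4 ratios averaged 4.89, 2.56, 1.17 and 2.07, so Atp5b stayed above Atp5a1, and Atp5a1 above Atp5c1, in both quantifications.

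The peripheral stalk, which holds the head still, was represented by 4 genes. Atp5h was at 201 and 195 TPM, Atp5o, which caps the head, at 161 and 164 TPM, Atp5j at 146 and 137 TPM and Atp5f1 at 107 and 108 TPM. On transcripts typed protein_coding alone, Atp5o averaged 148.5 TPM, Atp5h 144.5 TPM, Atp5f1 54.8 TPM and Atp5j 22.3 TPM. The small membrane subunits were in the same range, with Atp5l at 142 and 154 TPM, Atp5mpl at 144 and 150 TPM, Atp5k at 105 and 105 TPM and Atp5j2 at 105 and 105 TPM. These last genes support the dimers of the enzyme. Atp5s, an accessory coupling factor rather than a structural subunit, stood apart at 13.6 and 14.6 TPM. With Atp5s and Atp5g2 included, the ratio of the highest to the lowest detected member was 171, and without them it was 6.99.

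The c subunit, which forms the rotating ring in the membrane, is made from 3 genes whose mature proteins are the same. Atp5g3 was at 207 and 214 TPM, Atp5g1 at 168 and 161 TPM and Atp5g2 at 4.70 and 3.48 TPM. In the gene quantification Atp5g3 thus held 55.5% ± 1.5 of their TPM, Atp5g1 43.4% ± 1.3 and Atp5g2 1.08% ± 0.22 (SD, n = 2). Their sum over Atp5c1 was 3.73 in replicate 1 and 3.87 in replicate 2. The second quantification gave Atp5g2 171 and 169 TPM, and shares of 48.0% for Atp5g3, 30.1% for Atp5g1 and 21.9% for Atp5g2. The level of Atp5g2 is therefore uncertain.

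The last 120 coding bases of the 3 c subunit genes are shown because they encode the same residues with different codons, which is what lets reads be told apart. Capitals mark the bases at which a gene differs from at least 1 of the other c subunit genes. Gm10175, a processed pseudogene of Atp5g2 on chromosome 7 from 23946646 to 23947290 in mm10, is set beside them in lower case. Sequences are those of the GENCODE M21 transcripts, coding strand, 5′ to 3′.
Atp5g1, chromosome 11: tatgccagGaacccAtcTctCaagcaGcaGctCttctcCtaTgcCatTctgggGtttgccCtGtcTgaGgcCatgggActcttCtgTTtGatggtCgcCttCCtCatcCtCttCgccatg
Atp5g2, chromosome 15: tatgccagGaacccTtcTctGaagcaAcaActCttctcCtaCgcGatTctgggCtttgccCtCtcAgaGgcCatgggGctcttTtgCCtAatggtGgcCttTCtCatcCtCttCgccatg
Atp5g3, chromosome 2: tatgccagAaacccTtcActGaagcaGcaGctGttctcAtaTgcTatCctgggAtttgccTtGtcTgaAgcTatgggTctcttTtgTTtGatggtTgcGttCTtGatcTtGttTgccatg
Gm10175, chromosome 7: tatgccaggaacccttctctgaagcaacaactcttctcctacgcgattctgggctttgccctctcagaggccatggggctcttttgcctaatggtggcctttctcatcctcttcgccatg

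Over the 234 bases that encode the shared end of 78 residues, Atp5g1 and Atp5g2 were identical at 84.6% of bases, Atp5g1 and Atp5g3 at 78.6%, and Atp5g2 and Atp5g3 at 77.4%. Within the printed stretch the pairs differed at 16, 21 and 27 bases. Gm10175 matched Atp5g2 at every one of the 438 coding bases of Atp5g2, so reads from the coding region could not be told apart by sequence. In the gene quantification Atp5g2 had 63.9 counts in replicate 1 and 49.6 in replicate 2, while Gm10175 had 1201 and 1216 counts. In the second quantification Atp5g2 had 1084 and 1105 counts and Gm10175 had 0 in both. The summed counts were 1265 and 1266 in the first and 1084 and 1105 in the second quantification, so the quantifications differed mainly in which of the pair received the reads.

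Other members had a processed pseudogene elsewhere in the genome that drew counts in the first quantification and almost none in the second. Ndufb4 and Ndufb4c, on chromosome 15, were identical over the 387 coding bases of Ndufb4. Ndufb4 had 408 counts in replicate 1 and 402 in replicate 2, beside 603 and 648 counts on Ndufb4c, and 600 and 593 counts in the second quantification, where Ndufb4c had 0. The sums of the pair were 1011 and 1050 in the first, so the pair as a whole was also lower in the second. The level of Ndufb4 was 33.8 and 32.4 TPM in the first and 180 and 186 TPM in the second quantification, so its place as the lowest subunit of complex I held only in the first. Atp5h had 2205 and 2283 counts beside 490 and 538 on the pseudogene Gm10250, and 2528 and 2615 in the second quantification, where Gm10250 had 1.20 and 0. Atp5l had 1588 and 1752 counts beside 495 and 412 on the pseudogene Gm10221, and 1575 and 1557 in the second quantification, where Gm10221 had 0. Atp5l itself thus had no more counts in the second quantification, unlike Atp5g2, Ndufb4 and Atp5h. Only copies holding at least 30% of a member's words were followed in both quantifications. Copies below that share also drew counts in the first. They included Gm12338 at 712 and 766 for Cox7c, Gm6969 at 296 and 317 for Cox7a2l, and BC002163 at 258 and 244 for Ndufs5. For Atp5g1 the copy Gm10039 had 137 and 172 counts.

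**Figure D3:**
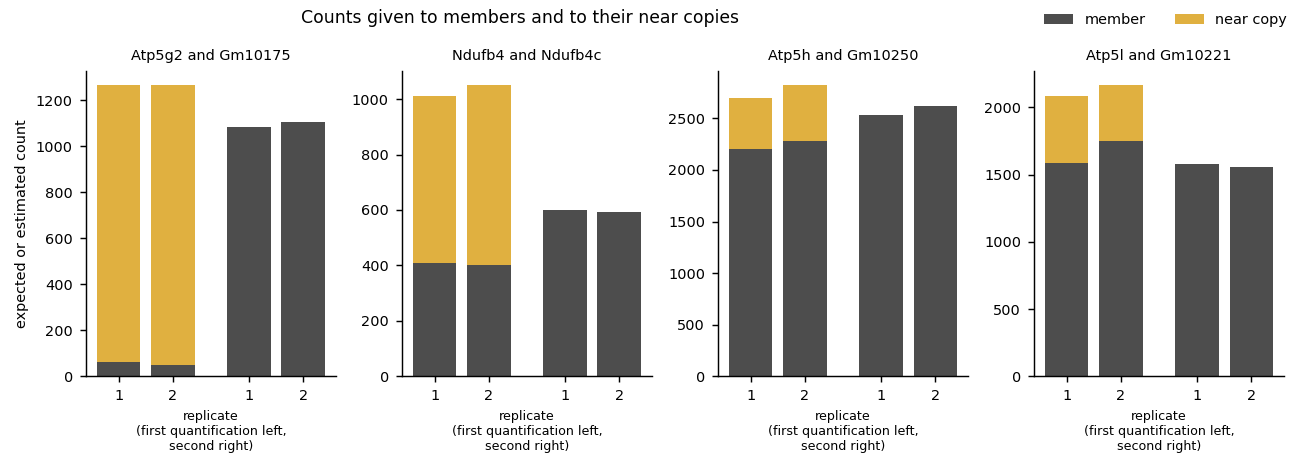
Counts given to 4 members (dark) and to their near copies (yellow, stacked on top) in replicates 1 and 2, with the first quantification on the left and the second on the right of each panel. In the second quantification nearly all counts stand on the member, while in the first Gm10175 took 1201 and 1216 counts against 63.9 and 49.6 on Atp5g2.

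Sequence sharing was limited for most members when the words of all protein-coding transcripts of a gene were pooled. Pooling can lower the share where a gene has long transcripts with few reads. Ndufb4 stood at 38.3% although its coding bases were identical to those of Ndufb4c. By the share of a gene's 31-base words that also occur in transcripts of another gene, 51 members had under 5%, 20 had from 5 to 25%, 11 had from 25 to 50% and 3 had at least 50%. Those 3 were the additional Atp5o identifier at 94.0%, Atp5l at 69.7% and Uqcrb at 54.3%. The additional Atp5o identifier overlaps the main one and Donson on the same strand. It drew no count in the gene quantification, with limits of 0.31 and 0.301 TPM at 3 counts, and 6.17 and 13.8 counts in the second quantification. For Uqcrb the copies Gm16089 and Gm2962 had at most 2.06 counts, and for Ndufs3, at 49.3% of words, the copy Gm12251 had 2.71 and 1.37. Uqcrb had 922 and 951 counts in the first and 548 and 569 in the second quantification, a difference these copies do not hold. Exons of 26 of the 80 detected members overlapped a gene on the opposite strand, against 31.4% of detected nuclear protein-coding genes. For 19 members such a gene was itself detected, against 15.8%. Examples were Atp5d, which overlaps 68 bases of Cbarp at 135 and 144 TPM, and Atp5j, which overlaps 397 bases of Gabpa at 10.6 and 9.28 TPM. Whether the authors' counting used strand is not given in the sources used here, so such reads cannot be assigned with certainty.

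Levels were compared between the quantifications after each TPM was scaled to the sum over nuclear protein-coding genes. Of the 80 detected members, 5 differed at least 2-fold either way, while 1.27% of the 12676 genes compared did so. Ndufa3 was the 1 member higher in the first quantification, by 1.21 on the log2 scale (background 0.671%). The 4 members lower in the first (background 0.600%) were Atp5g2, with a log2 ratio of -4.54, Ndufb4 with -1.63, Cox7c, a small complex IV subunit, with -1.07, and Atp5e with -1.01. Cox7c shared 14.3% of its words with the pseudogene Gm12338, which had 341 and 357 TPM in the first quantification. The part of this copy in the difference was not tested. The median log2 ratio of the members was -0.05, and that of all genes compared was 0.08. Short transcripts differed most. Among other genes under 500 nucleotides long, 27.3% differed at least 2-fold, and of the 15 members of that length 2 did. In the range from 500 to 700 nucleotides the figures were 9.44% of other genes and 2 of 29 members, and from 1000 to 2000 nucleotides 1.27% and 0 of 15.

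**Figure D4:**
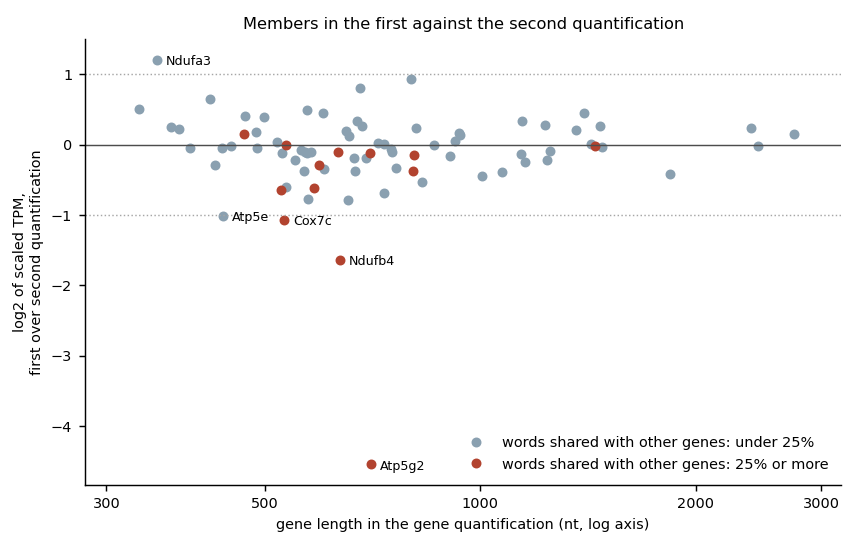
Log2 ratio of scaled TPM, first over second quantification, against gene length in nucleotides on a log axis for the 80 detected members. Dotted lines mark a 2-fold difference, red points share at least 25% of their words with other genes, and the 5 members outside the lines are named.

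Most members were carried by a single protein-coding transcript, but a group of them was not. The most abundant transcript was of type protein_coding in 71 of the 80 detected members. In the other 9 it was not, against 7.54% of detected nuclear protein-coding genes. By the second quantification it was not in 18 members, against 9.46%. The 9 of the first were Atp5j, Cox5b, Cox7b, Ndufa3, Ndufa5, Ndufb4, Ndufc1, Ndufs4 and Uqcrh, and their main transcripts were typed retained_intron, processed_transcript or nonsense_mediated_decay. For Ndufa3 a 343-nucleotide transcript of the decay type was at 216 and 220 TPM, and held 93.2% ± 0.4 of the gene. The second quantification gave it 0 and 71.95 TPM, and its main transcript there was a retained-intron form of 782 nucleotides. For Atp5j a 526-nucleotide retained-intron transcript was at 117 and 104 TPM, and at 0 in both libraries in the second quantification. For Cox7b a 526-nucleotide retained-intron transcript held 54.8% in the first and 99.4% in the second quantification. For these genes the quantifications were farther apart than the libraries of the first.

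Main transcripts were also compared between the quantifications and between the libraries. Of the 71 members with several transcripts, 26 had another main transcript in the second quantification, and 45 the same one, which is 63.4%. Among all detected nuclear protein-coding genes with several transcripts 24.5% differed. Between the libraries, 3 of the 71 differed within the first quantification, against 11.2% of those genes, and 8 of the 71 within the second, against 14.1%. Transcripts typed protein_coding summed to a median of 81.2 TPM over the 80 detected members, against 102 TPM for the whole genes. Atp5b had 469 and 473 TPM on its protein-coding transcript of 1916 nucleotides, beside 141 and 146 TPM on a 478-nucleotide processed transcript.

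Known alternative products of single members could be read in part. Ndufv3, an accessory subunit of the NADH-oxidising arm, has short and long protein-coding transcripts. The 493-nucleotide transcript was at 96.7 and 92.6 TPM, and the 1582-nucleotide transcript, which holds an additional long exon, at 4.96 and 4.40 TPM. The short form held 91.8% ± 0.5 of the gene in the first and 89.9% in the second quantification, so both gave the same order. For Atp5c1, the 1166-nucleotide transcript, with 10 exons, had 92.5 and 89.8 TPM and the 1060-nucleotide transcript, with 9 exons, 3.94 and 2.88 TPM.

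The members were steadier between the libraries than genes in general. Among genes with at least 50 expected counts in both libraries, 0 of 75 members differed in TPM by 25% or more, taken as the higher value over the lower, while 10.3% of 13916 genes did. With TMM-scaled counts, which use library factors that balance the bulk of genes, 0 of 75 were apart against 5.29%, and by the second quantification 1 of 76 was, against 12.8%. That 1 was Ndufa1, a membrane-arm subunit on the X chromosome, at 83.9 and 111 TPM, whereas it had 83.5 and 87.4 TPM in the first. The SD of the log2 ratio was 0.08 over members and 0.20 over all these genes. The members' counts are high, and within classes of like count the members were still closer. From 1000 to 2000 counts the median absolute log2 ratio was 0.05 for 29 members and 0.08 for 2323 other genes, and from 500 to 1000 counts it was 0.05 for 19 members and 0.10 for 2476 others. The gap was smaller from 2000 to 5000 counts, at 0.06 for 21 members and 0.07 for 2002 others. From 5000 counts upward it was 0.05 for 4 members and 0.06 for 1114 others. In the classes from 500, 1000, 2000 and 5000 counts, 5.90%, 3.14%, 1.70% and 0.718% of other genes were apart. These shares are below the 10.3% over all genes.

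Replicate 1 was the higher library for 32 of the 75 members and for 62.6% of the genes compared. The median log2 ratio of replicate 1 over replicate 2 was -0.02 for members and 0.04 for all these genes. With TMM-scaled counts the figures were 16 of 75 against 48.8%, with medians of -0.06 and -0.003, and in the second quantification 20 of 76 against 57.3%, with medians of -0.05 and 0.03. Members thus lay slightly to the side of replicate 2 under all 3 scalings. In TPM of the first quantification the largest differences were those of Cox6b1, with a log2 ratio of -0.21, Ndufs3 with -0.17, Cox8a with 0.20 and Ndufb5 with 0.16. With TMM-scaled counts Cox6b1 had -0.08, and Ndufb9 with -0.19 and Ndufs7 with -0.18 had the largest. Cox8a was the higher in replicate 1 under all 3 scalings, and Ndufb5 was so in TPM of both quantifications but had -0.05 with TMM-scaled counts.

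Members had short transcripts with few exons. The main transcript, where it was protein-coding, had a median of 680 nucleotides in members and 2957 in other detected genes, the coding part 408 and 1374, and the number of exons 4 and 9. Among the 76 detected members outside the restricted list, level and length were weakly related across genes, which are not independent replicates, with a Spearman rho of -0.32 in the first and -0.26 in the second quantification. Ndufa1, Ndufb11 and Cox7b lie on the X chromosome, and the others are spread over 18 autosomes. A protein-coding gene on the opposite strand started within 1000 bases upstream of 19 of the 80 detected members, against 9.77% of detected nuclear protein-coding genes. Examples were Sdhd with Timm8b, a protein of the import machinery, 98 bases apart and at a mean of 45.4 and 93.6 TPM, and Ndufa7 with the ribosomal protein gene Rps28, 10 bases apart and at 85.5 and 313 TPM.

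Promoter windows were searched for short motifs because NRF1, GABPA and YY1 are transcription factors known for binding upstream of respiratory genes. Windows of RefSeq genes in GRCm38.p6, from 250 bases before to 50 after the start, matched 68 of 84 member symbols with 73 windows. The symbols without a window included Atp5a1, Atp5mpl, Cox4i1, Cox4i2, Cox6a2, Cox6c, Cox8c, Ndufa2, Ndufa4l2, Ndufb9, Ndufs1, Sdhc, Uqcrb, Uqcrc2 and Uqcrq. Letters were searched on both strands. A window is printed for each complex, chosen for its matches to the NRF1 and GABPA cores within 150 bases before and 30 after the start. The YY1 core is not marked. Each window runs in the direction of the gene, 5′ to 3′, so that the arrangement around the start can be seen. Capitals mark GCATGCGC, the NRF1 core, or CGGAAG, the GABPA core, on either strand, and matches on opposite strands can overlap.
Ndufa12, complex I, chr10:94198885-94199064, plus strand: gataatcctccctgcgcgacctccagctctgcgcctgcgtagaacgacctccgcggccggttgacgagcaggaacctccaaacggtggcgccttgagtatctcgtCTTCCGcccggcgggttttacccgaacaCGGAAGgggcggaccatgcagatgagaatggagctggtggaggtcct
Sdhb, complex II, chr4:140961121-140961300, plus strand: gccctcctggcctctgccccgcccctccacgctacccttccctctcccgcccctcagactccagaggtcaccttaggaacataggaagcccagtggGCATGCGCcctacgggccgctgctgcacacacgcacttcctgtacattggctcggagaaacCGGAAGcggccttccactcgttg
Uqcr11, complex III, chr10:80406792-80406971, minus strand: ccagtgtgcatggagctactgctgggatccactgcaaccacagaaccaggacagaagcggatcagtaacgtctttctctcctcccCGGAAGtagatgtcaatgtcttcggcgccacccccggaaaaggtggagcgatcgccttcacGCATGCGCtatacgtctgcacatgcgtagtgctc
Cox6b1, complex IV, chr7:30626085-30626264, minus strand: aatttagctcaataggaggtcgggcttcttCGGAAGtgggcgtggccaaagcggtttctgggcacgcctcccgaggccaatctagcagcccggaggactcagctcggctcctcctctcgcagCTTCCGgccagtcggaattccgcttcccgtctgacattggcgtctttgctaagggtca
Atp5k, ATP synthase, chr5:108434370-108434549, minus strand: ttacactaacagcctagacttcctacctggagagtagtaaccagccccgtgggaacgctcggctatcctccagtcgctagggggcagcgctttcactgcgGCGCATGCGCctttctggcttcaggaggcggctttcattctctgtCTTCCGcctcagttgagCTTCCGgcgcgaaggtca

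The NRF1 core was held by 10 of the 68 matched members, against 5.98% of other detected nuclear protein-coding genes and 3.05% of all genes of the promoter table. Among them were Sdhb, Uqcr11 and Atp5k in the windows above, with the match in Sdhb starting at base -54 from the start and that in Uqcr11 at base -4. In Atp5k the matches on opposite strands begin at -50 and -48 and overlap. The YY1 core, AAGATGGC, was also held by 10 members, against 5.14% and 3.19%, and 7 of these were complex I genes, the others Atp5f1, Atp5j and Atp5j2. The GABPA core was held by 27 members, against 34.2% and 18.8%. As shares of the 68 members these counts are 14.7%, 14.7% and 39.7%, and no test of them was made.

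Letters of more general promoter elements were searched in the same way. GGGCGG, the SP1 letters, was held by 28 members, or 41.2%, against 70.2% of other detected genes and 38.2% of all genes. CCAAT was held by 30 members, against 43.2% and 41.1%, and TATAAA by 7, against 8.63% and 15.7%. No member window held all 3 of the NRF1, GABPA and YY1 cores, 10 members held 2 kinds, 27 held 1 and 31 held 0. Members with the NRF1 core had a median of 99.7 TPM, and matched members without it 104 TPM. For the YY1 core the medians were 106 and 102 TPM, and for the GABPA core 106 and 100 TPM, so the medians lay close together. A match is a run of letters, not a bound site, and no binding was measured here.

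**Figure D5:**
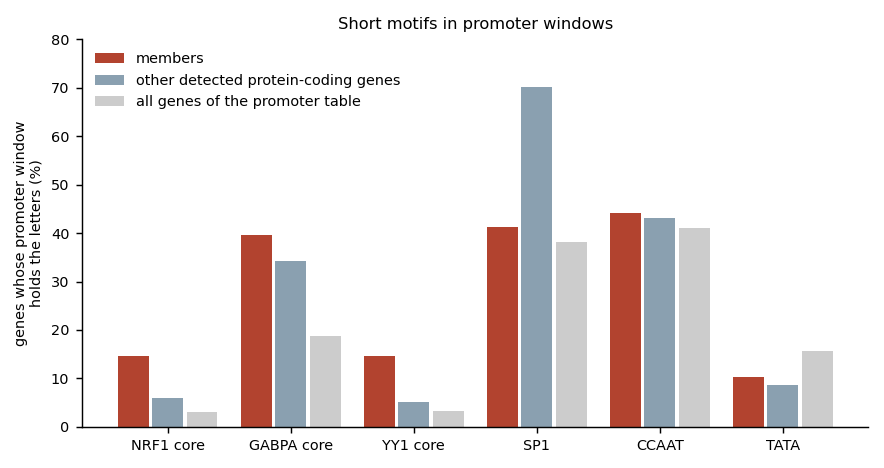
Share of genes, in percent, whose promoter window holds each motif on either strand, for 68 members, 10021 other detected nuclear protein-coding genes and all 27025 genes of the promoter table. Members stand at 14.7% for the NRF1 and YY1 cores against 5.98% and 5.14% in other detected genes, and at 41.2% for SP1 against 70.2%.

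The rest of the pathway was read from separate lists. The 13 mitochondrially encoded subunits were all detected in the first quantification, at a median of 1796 TPM. The highest were mt-Co1 at 5653 and 5500 TPM, mt-Cytb at 3173 and 3040 TPM and mt-Nd1 at 3129 and 2984 TPM, while mt-Nd6 and mt-Co2 were the lowest at 184 and 182 TPM and at 156 and 63.8 TPM. Reads of these genes can also go to near-identical nuclear copies, which was not tested here. The level of mt-Co2 was 1642 and 1656 TPM in the second quantification. Other levels also depended on the quantification. The gene mt-Atp8 had 1863 and 1729 TPM in the first and 0 in both libraries in the second, and mt-Nd4l had 2038 and 1871 TPM in the first and 9.94 and 25.9 TPM in the second. By the second quantification 12 of the 13 were detected. The median of the detected nuclear members was far below that of the mitochondrial list. Of 7 symbols listed as partners outside the symbol rule, 5 were found in the annotation. Dmac2l and Mp68 were not found under these names, and Dmac2l is the RefSeq symbol of the member Atp5s. Usmg5, a small subunit of ATP synthase, had 336 and 347 TPM, Atpif1, the inhibitor of its reverse reaction, 170 and 170 TPM, and Ndufab1, the acyl carrier protein of complex I, 125 and 115 TPM. Cyc1, the cytochrome of complex III, had 74.1 and 78.9 TPM, and Cycs, cytochrome c, 18.2 and 17.4 TPM. The level of Cycs depended on the quantification, with 205 and 204 TPM in the second.

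Assembly factors, which build the complexes but are not part of them, were all detected in the first quantification, with medians below those of the subunits. These medians were 15.0 TPM for the 14 factors of complex I, 13.2 TPM for the 4 of complex II, 20.98 TPM for the 6 of complex III, 14.1 TPM for the 20 of complex IV and 21.5 TPM for the 4 of ATP synthase. The highest in each list were Ndufaf3 at 29.9 and 25.2 TPM, Sdhaf2 at 25.7 and 23.1 TPM, Uqcc2 at 89.5 and 84.8 TPM, the copper chaperone Cox17 at 50.1 and 55.4 TPM and Atpaf1 at 24.8 and 28.7 TPM. The lowest included Nubpl at 2.32 and 1.80 TPM, Sdhaf3 at 2.81 and 2.30 TPM and Pet117 at 3.22 and 2.69 TPM. Pet117 was at 0 in both libraries in the second quantification. Uqcc2 lay above Uqcrfs1, the lowest subunit of complex III. Each median lay well below that of the detected members of the same complex.

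A list of regulators was detected in 15 of 15 cases at a median of 9.95 TPM. It also held enzymes that copy or transcribe mitochondrial DNA, which are not regulators of the nuclear members. Polg, the mitochondrial DNA polymerase, had 31.2 and 35.7 TPM, the nuclear receptor Esrra 23.2 and 21.9 TPM, and the mitochondrial RNA polymerase Polrmt 18.1 and 20.0 TPM. The factors whose motifs were searched had 18.3 and 18.9 TPM for Yy1, 10.6 and 9.28 TPM for Gabpa and 10.53 and 8.00 TPM for Nrf1, and the coactivator Ppargc1a had 17.0 and 15.9 TPM. The list of tricarboxylic acid cycle genes, which feed the chain, was detected in 17 of 17 cases, with a median of 71.98 TPM. It also included Pdha1, Pdhb and Dlat, which are pyruvate dehydrogenase genes. Among the highest were Mdh2 at 156 and 170 TPM and Idh3b at 128 and 126 TPM, while Fh1 at 29.98 and 25.6 TPM and Suclg2 at 5.41 and 5.13 TPM were the lowest. Genes of the cycle list thus lay nearer to the level of the subunits than assembly factors and regulators did.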

How the data were processed

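Total RNA of 2 libraries was sequenced, and the labels state 300 ng of input RNA and an ERCC spike-in profile named for stranded libraries with reduced ribosomal RNA. Per the file headers, the deposited expected counts and TPM, per gene and per transcript, have the layout of RSEM, and the deposited estimated counts and TPM of the second transcript quantification have that of kallisto, summed here per gene. Per the file headers the posterior mean TPM and its bounds accompany the first. The build is mm10 with GENCODE M21, and no source used here names the programs. Reads of CAST/EiJ alleles were assigned to the C57BL/6J reference, and the effect was not measured. The replicates have no stated animal of their own, so the spread between them may be technical.

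The expected counts entered no count test, since there was 1 group. TMM factors came from edgeR 4.0.16 under R 4.3.3, and the rest was computed with Python 3.11.15, pandas 2.3.3 and scipy 1.17.1. Genes were called apart between libraries at 25% or more, with at least 50 counts in both, and between quantifications at 2-fold. The fold calls, word sharing and motif search were tested on simulated data. Named were all members of complexes with at most 10 members, the 5 highest and 5 lowest elsewhere, complex I core subunits, paralogs, members apart or sharing at least 50% of words, members with a main transcript not protein_coding, and list extremes. Other members, and overlap and start-site partners, were named after their values were seen. Some genes that this rule would name are not reported here. The members, lists and thresholds were chosen with earlier results of these data known. Alternatives covered the quantification, the estimate, thresholds, filters, scaling, motif letters and each library.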

Additional observations from a re-analysis of the deposited data

How the results depend on the processing

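The second quantification moved the median TPM of complexes I to IV and ATP synthase to 161, 114, 267, 284 and 260, and the ratio of highest to lowest member to 4.65, 3.12, 3.11, 4.64 and 45.5. Posterior mean TPM gave medians of 83.1 for complex I, 148 for complex III and 139 for ATP synthase, and ratios of 2.99 for complex II and 125 for ATP synthase. Leaving out Ndufa4 gave complex I a median of 84.8, adding it gave complex IV 129, and leaving out Atp5s and Atp5g2 gave ATP synthase a ratio of 6.99, all chosen after seeing the data. At a detection minimum of 5 TPM, 0 restricted forms were detected. Members apart between libraries numbered 7 with no count filter, all of them low in counts, against 32.7% of all 23625 genes, and 1 in the second quantification. Members apart between quantifications numbered 14 at 1.5-fold and 27 with TPM as deposited, against 5.58% and 19.0% of the 12676 genes compared. Longer motif letters were held by 5 members for NRF1, 10 for GABPA and 4 for YY1, against 2.31%, 14.4% and 1.76% of other detected genes. Leaving out either replicate gave medians of 85.4 to 86.2 for complex I, 149.7 to 152.0 for complex III and 141.2 to 141.4 for ATP synthase, and ratios of 2.64 to 2.72 for complex III. Of 81 alternatives 50 stayed within the replicate spread or within 1.5 times the count, and the cause of the 31 that moved was not tested. No paired analysis was possible because there is 1 group and no comparison between groups. The restricted forms rest on 0 to 29 counts.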
